A study of Homo sapiens with 6 samples.

Results

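Interleukins, chemokines and colony-stimulating factors with their receptors were followed in human colorectal tumour cells that had grown in mouse liver. The set held 54 genes chosen by symbol, 32 for ligands or the inhibitor IL1RN and 22 for receptors, among 58884 genes counted. All 54 had a row in the count matrix. The cells were SW480, an established colorectal cancer line. One group carried a control guide RNA (sgCtrl) and the other a guide RNA against ITPR3 (sgITPR3), the gene of a calcium release channel of the endoplasmic reticulum, and the loss of the protein had been checked by Western blot per the labels. Cells of both groups were brought to the liver of NSG mice through portal blood. These mice lack T, B and NK cells but keep mouse myeloid cells, liver cells and vessels. Livers were digested with collagenase IV, and tumour cells were enriched by a density gradient and by depletion of mouse cells. The RNA of 3 libraries per group was sequenced as 3' end tags. The labels do not say whether each library came from its own animal, or whether a guide stands for 1 clone, so the tests measure the spread between these libraries, which may in part be technical.

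Interleukins and colony-stimulating factors are secreted proteins that act on neighbouring cells through paired receptor chains, most of which signal through JAK kinases and STAT factors or, in the IL-1 and IL-17 families, through adaptors that lead to NF-kB. Chemokines are small secreted proteins that attract leukocytes through G protein-coupled receptors, and the CXC chemokines with a Glu-Leu-Arg motif attract neutrophils. Epithelial and tumour cells transcribe many of these ligands after NF-kB, AP-1 or calcium signals, and many of the transcripts carry AU-rich elements through which they are rapidly degraded.

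Libraries held 19140055 to 23943797 counts. A single count was worth 0.0405 to 0.0538 CPM (counts relative to library size, after TMM scaling for library composition). ITPR3 itself was measured at 107.5, 93.9 and 94.2 CPM in sgCtrl and at 39.4, 41.0 and 46.2 CPM in sgITPR3. A 3' tag may lie outside the edited part of the gene, so this checks the labels only in part. Markers of SW480 epithelium were abundant in every library, with summed levels of 2360 to 2745 CPM in sgCtrl and 1924 to 1980 CPM in sgITPR3. Of these, EPCAM, KRT8 and KRT19 fell, and KRT20, a marker of differentiated colon epithelium, had at most 9 counts. Summed hepatocyte markers overlapped between groups, at 69.7 to 269 CPM in sgCtrl and 167 to 322 CPM in sgITPR3. Of the 7 tested hepatocyte genes, APOA1 rose (log2 fold change 1.06, edgeR adjusted p = 0.0414), SERPINA1, which tumours can also express, fell (log2 fold change -1.64, edgeR adjusted p = 1.51e-07), and 5 did not pass. The 9 macrophage markers summed to at most 1.29 CPM and the 6 endothelial markers to at most 0.722 CPM. C1QA, C1QB and VSIG4 (macrophage), FCGR3B and ELANE (neutrophil), CD2 and NKG7 (T and NK cells), CLEC4G (endothelium) and LUM (fibroblast) had 0 counts in all 6 libraries. The neutrophil sum of 9.88 to 15.7 CPM in sgCtrl and 3.80 to 7.51 CPM in sgITPR3 came mostly from S100A9, which epithelial cells can express, and the T and NK sum of 93.3 to 105 CPM and 116 to 149 CPM came almost entirely from CD3D, while CD3E had at most 13 counts. The 4 erythroid genes summed to 0.587 to 1.34 CPM and 4.84 to 6.39 CPM. These sums came mostly from HBA2, which rose (log2 fold change 2.51, edgeR adjusted p = 2.56e-05), and HBA1. HBB and ALAS2 had at most 2 counts in any library. The 7 stellate cell and fibroblast genes summed to 18.1 to 19.5 CPM and 20.6 to 23.2 CPM. The rows are human genes, while host cells of the liver were mouse cells. Low or 0 counts of these markers therefore do not show that mouse cells were absent. Whether reads of hepatocyte genes such as ALB came from mouse RNA was not tested. The part of other cells in the results that follow was not tested except where a value is given.

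Of the 54 members, 4 (IL1A, IL6, CCR6 and CXCL10) had 0 counts in all 6 libraries. For these genes 3 counts over a group, the limit that a count of 0 allows, is 0.0522 CPM in sgCtrl and 0.0446 CPM in sgITPR3, which covers counting error only. A further 17 were detected but too low to test. The remaining 33 were compared by edgeR's quasi-likelihood test, and a gene passed at a Benjamini-Hochberg adjusted p under 0.05 over all 15804 genes tested. Of these 33, 9 fell and 4 rose in sgITPR3, while 23.5% of all genes tested were called, 11.9% lower and 11.6% higher. Among ligands, 7 of 14 tested genes fell (IL24, IL32, CCL2, LIF, IL23A, CSF1 and CX3CL1) and 3 rose (CCL20, IL16 and CXCL14), all by at least 2-fold. Receptors gave 2 falls (ACKR3 and IL15RA) and 1 rise (CXCR4) among 19 tested. A fall of at least 2-fold passed for 8 members and for 1.73% of all genes tested, and a rise of at least 2-fold for 3 members and 4.31% of all genes. The median log2 fold change was 0.051 over the tested members and 0.00086 over all genes. CCL20, IL20RB, IL1R1, IL15 and LIFR would not have entered the test by their level in sgCtrl alone. CCL2 would not have entered by its level in sgITPR3 alone. The tested members are therefore a selected part of the set.

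**Figure D1:**
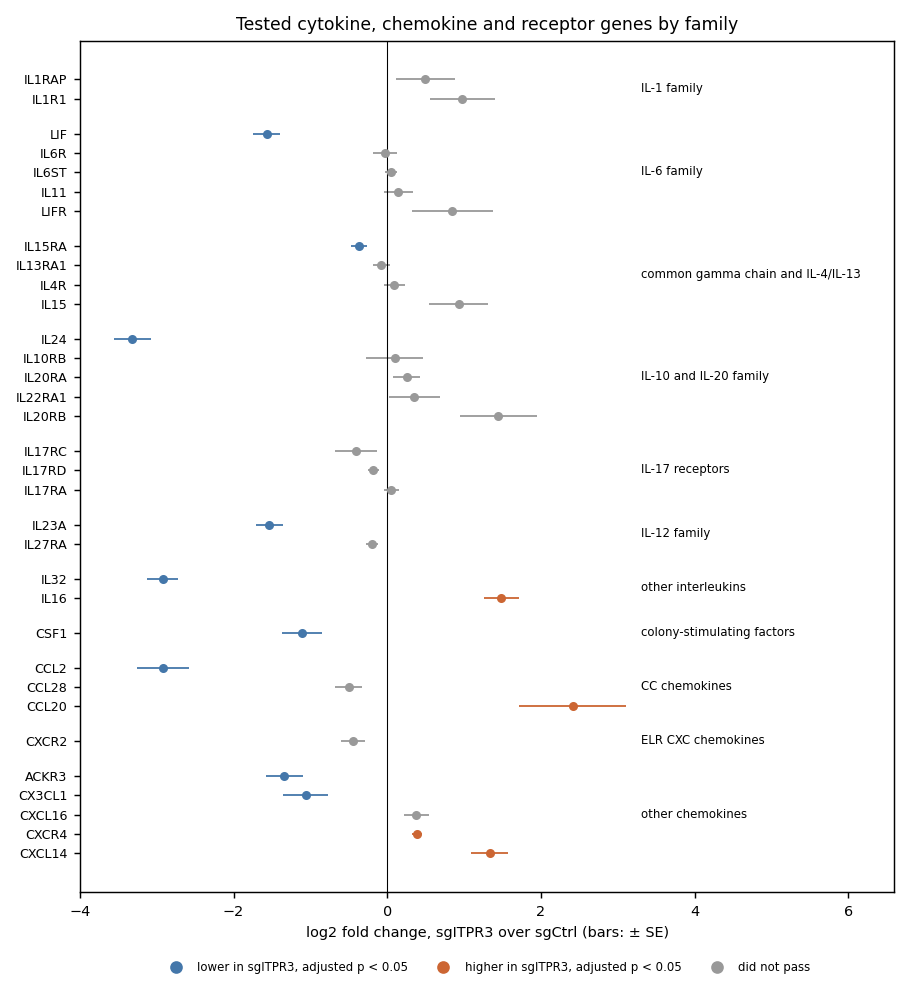
Log2 fold change of sgITPR3 over sgCtrl (horizontal axis, bars ± SE of the edgeR fit) for the 33 tested members, grouped by family. IL24, IL32 and CCL2 lie farthest to the left, between -3.32 and -2.92, and CCL20, IL16 and CXCL14 are the called genes above 1.

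IL24 belongs to the IL-10 and IL-20 family and signals to epithelial cells through STAT factors. Its gene (ENSG00000162892, chromosome 1, 206897443 to 206904139, plus strand, GRCh38) was measured at 13.6, 9.40 and 12.4 CPM in sgCtrl and at 0.691, 1.38 and 1.49 CPM in sgITPR3. All sgITPR3 libraries lay far below all sgCtrl libraries. The level was 9.97-fold lower (log2 fold change -3.32, SE 0.24 by edgeR, adjusted p = 2.90e-07), and the gene passed in all 13 alternative analyses. IL24 binds receptors made of IL20RB with either IL20RA or IL22RA1. IL20RA was at 4.36 ± 0.462 CPM in sgCtrl and 5.19 ± 0.197 CPM in sgITPR3 (SD, n = 3; edgeR adjusted p = 0.329), and IL22RA1 at 1.34 ± 0.241 and 1.69 ± 0.566 CPM (edgeR adjusted p = 0.485). IL20RB had 13, 3 and 8 counts in sgCtrl and 24, 39 and 16 counts in sgITPR3, groups that did not overlap but missed the threshold (log2 fold change 1.45, edgeR adjusted p = 0.0501). It passed without sgCtrl replicate 1 (log2 fold change 1.99, edgeR adjusted p = 0.0321), with all low genes kept (0.0234) and with limma-voom (adjusted p = 0.0357). Exons of IL20RB overlap NCK1 on the same strand, which leaves its reads uncertain. IL10RB, the shared second chain of the IL-10 and IL-22 receptors, was at 1.06 ± 0.0971 and 1.13 ± 0.487 CPM and did not pass. Its exons overlap AP000295.1 on the same strand, so its reads are also uncertain.

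IL32, a proinflammatory protein of T, NK and epithelial cells that resembles no other interleukin (ENSG00000008517, chromosome 16, 3065297 to 3082192, plus strand), was measured at 10.3, 8.005 and 10.3 CPM in sgCtrl. Its level in sgITPR3 was 1.12, 1.34 and 1.29 CPM. The sgITPR3 libraries were close to each other and well below sgCtrl. This was a fall of 7.59-fold (log2 fold change -2.92, SE 0.20 by edgeR, adjusted p = 1.34e-07) that passed in all 13 alternatives. Exons of IL32 overlap RNU1-125P on the same strand, so its reads are uncertain to that extent. IL16, whose protein is processed into a ligand of CD4, moved the other way, from 1.51, 2.29 and 1.82 CPM to 5.70, 5.67 and 4.38 CPM. Every sgITPR3 library was above every sgCtrl library, by 2.80-fold on average (log2 fold change 1.49, SE 0.23 by edgeR, adjusted p = 2.93e-04). Exons of IL16 overlap STARD5 on the opposite strand. How the counting treated strand is not stated in the labels, so reads of IL16 cannot be told apart from those of STARD5.

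CCL2, the chemokine that recruits monocytes through CCR2 (ENSG00000108691, chromosome 17, 34255218 to 34257203, plus strand), had 59, 55 and 69 counts in sgCtrl and 6, 12 and 10 counts in sgITPR3. These are 3.17, 2.73 and 3.68 CPM against 0.259, 0.486 and 0.515 CPM. The groups were widely separated at a low level, a 7.56-fold fall (log2 fold change -2.92, SE 0.34 by edgeR, adjusted p = 2.61e-05). CCL2 entered the test through its level in sgCtrl, the group where it is higher. CCL20, which attracts cells bearing CCR6 and is made by gut epithelium (ENSG00000115009, chromosome 2, 227805739 to 227817564, plus strand), was the called member with the largest rise. It had only 2, 0 and 5 counts in sgCtrl and 13, 22 and 11 counts in sgITPR3, or 0.108, 0 and 0.267 CPM against 0.561, 0.890 and 0.567 CPM. The groups did not overlap (log2 fold change 2.41, SE 0.70 by edgeR, adjusted p = 0.0216). CCL20 entered the test only through its level in sgITPR3, the group where it is higher. Its call and the gap between groups are therefore not independent of that selection. The CCL20 call ended without sgCtrl replicate 1 (edgeR adjusted p = 0.0763), without sgCtrl replicate 2 (log2 fold change 1.82, edgeR adjusted p = 0.0533) and without sgITPR3 replicate 2 (edgeR adjusted p = 0.115). Its log2 fold change was 3.56 without sgCtrl replicate 3 and 4.15 with ALB as covariate. Its receptor gene CCR6 had no counts. CCL28, a mucosal chemokine, went from 9.07 ± 1.83 to 6.42 ± 1.12 CPM and did not pass (log2 fold change -0.50, edgeR adjusted p = 0.0544), but passed in 4 alternatives, namely ALB as covariate (edgeR adjusted p = 0.0220), no filter on low counts (0.0172), and the fits without sgCtrl replicate 1 (0.0286) or sgITPR3 replicate 1 (0.0476). CCL5, a T cell attractant, had 3, 5 and 9 counts in sgCtrl and 4, 2 and 0 in sgITPR3. It did not enter the test, and with all low genes kept it did not pass (log2 fold change -1.70, edgeR adjusted p = 0.336).

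**Figure D2:**
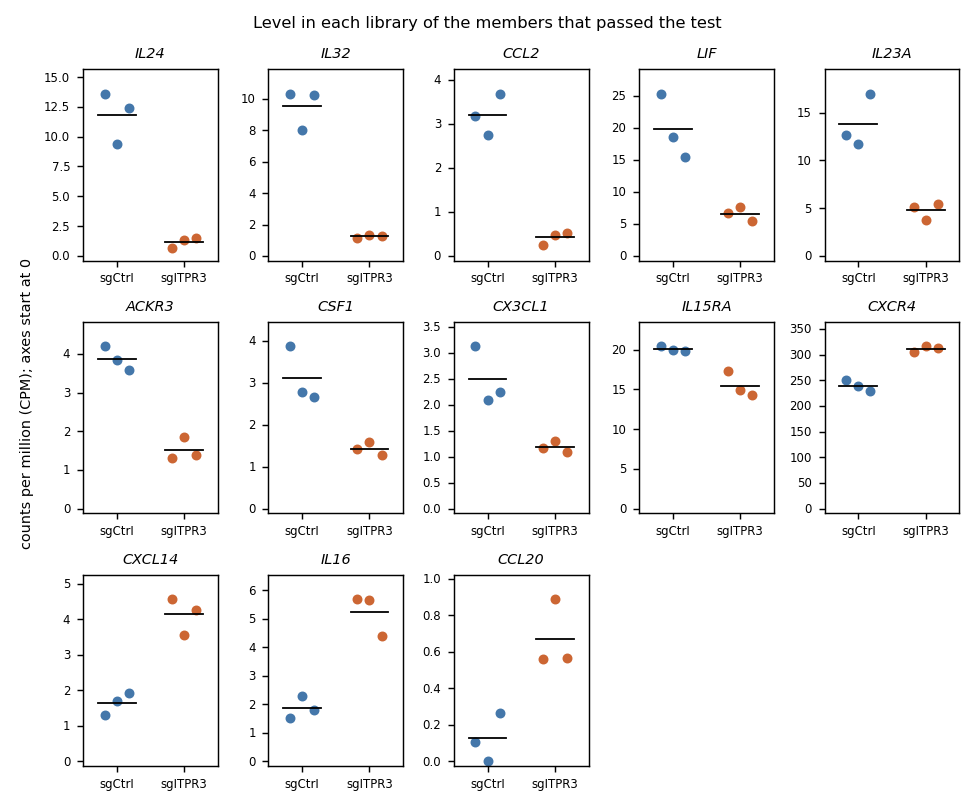
Level in CPM (vertical axes, each starting at 0) of the 13 members that passed, 1 point per library and a line at the group mean, ordered from the largest fall to the largest rise. In each panel the sgCtrl and sgITPR3 libraries do not overlap. The genes were chosen by the test on these libraries, so this separation is not separate evidence. CCL20 stays under 1 CPM.

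Start-site sequences from RefSeq (GRCh38.p14, from 250 bases before to 50 after each start) covered 42 of the 54 members. They are shown for the largest fall and the largest rise, for IL32 and IL23A, and for CXCL3, a chemokine discussed below. Capitals mark matches on either strand to the kappa B consensus bound by NF-kB, or to the AP-1 element TGANTCA, where N is any base. The windows are chr1:206897193-206897492 for IL24, chr16:3065153-3065452 for IL32, chr12:56338634-56338933 for IL23A, chr2:227813592-227813891 for CCL20 (all plus strand) and chr4:74038640-74038939 for CXCL3 (minus strand).
IL24: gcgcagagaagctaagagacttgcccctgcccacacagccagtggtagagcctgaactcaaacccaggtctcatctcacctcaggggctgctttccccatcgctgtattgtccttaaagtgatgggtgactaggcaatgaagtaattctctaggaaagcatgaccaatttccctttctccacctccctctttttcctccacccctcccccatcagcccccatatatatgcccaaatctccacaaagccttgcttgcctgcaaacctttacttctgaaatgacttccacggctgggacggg
IL32: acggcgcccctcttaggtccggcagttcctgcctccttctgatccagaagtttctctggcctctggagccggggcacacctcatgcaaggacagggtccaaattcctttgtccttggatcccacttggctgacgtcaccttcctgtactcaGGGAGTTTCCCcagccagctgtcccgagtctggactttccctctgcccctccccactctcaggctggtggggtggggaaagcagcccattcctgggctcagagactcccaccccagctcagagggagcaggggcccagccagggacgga
IL23A: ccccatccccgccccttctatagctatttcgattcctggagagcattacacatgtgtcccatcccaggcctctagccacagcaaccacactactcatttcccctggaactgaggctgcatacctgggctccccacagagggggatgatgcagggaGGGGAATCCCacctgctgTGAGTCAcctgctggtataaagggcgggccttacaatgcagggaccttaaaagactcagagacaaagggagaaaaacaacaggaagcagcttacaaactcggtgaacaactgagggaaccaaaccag
CCL20: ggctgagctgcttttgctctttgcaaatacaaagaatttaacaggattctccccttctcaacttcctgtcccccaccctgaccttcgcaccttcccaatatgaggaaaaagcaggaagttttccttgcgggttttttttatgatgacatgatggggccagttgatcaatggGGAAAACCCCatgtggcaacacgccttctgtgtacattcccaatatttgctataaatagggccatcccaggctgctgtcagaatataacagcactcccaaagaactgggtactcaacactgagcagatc
CXCL3: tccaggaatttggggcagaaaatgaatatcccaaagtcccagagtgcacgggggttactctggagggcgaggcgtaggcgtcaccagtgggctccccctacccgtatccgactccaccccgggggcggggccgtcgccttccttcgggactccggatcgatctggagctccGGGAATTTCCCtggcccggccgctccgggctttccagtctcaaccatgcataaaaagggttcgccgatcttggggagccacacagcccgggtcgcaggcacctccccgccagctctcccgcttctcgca
The IL24 window had no match to either motif. The IL32 and CXCL3 windows each had 2 kappa B matches that overlap in a single stretch, beginning 99 and 79 bases before the start. The CCL20 window had 1 kappa B match 79 bases before the start, and the IL23A window had 1 kappa B and 1 AP-1 match, at 95 and 77 bases before it. A second IL32 start in the table had neither. Matches to the kappa B consensus therefore stood at a gene that rose and at genes that fell. Of the 9 members that fell, only 4 had a window, and LIF, CCL2, CSF1, CX3CL1 and ACKR3 had none. The kappa B consensus was held by 2 of these 4 and by 1 of the 4 members that rose. It was also held by 3 of 17 members that did not pass and 7 of 17 not tested. Over all 63 windows of members, 20.6% held the kappa B consensus and 22.2% the AP-1 element, against 5.91% and 7.71% of the 35116 windows of all genes. Several members have more than 1 window and some of these overlap. The list comprises known inflammatory genes, and a match does not show that a factor binds.

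In the IL-6 family, whose receptors share the chain IL6ST (gp130), the ligand gene LIF fell. LIF maintains stem cells and acts in liver and tumours (ENSG00000128342, chromosome 22, 30240447 to 30246851, minus strand). It was measured at 25.3, 18.6 and 15.4 CPM in sgCtrl and 6.69, 7.65 and 5.52 CPM in sgITPR3. The lowest sgCtrl library was still above the highest sgITPR3 library (2.97-fold lower, log2 fold change -1.57, SE 0.18 by edgeR, adjusted p = 1.85e-05). LIF overlaps LIF-AS1 on the opposite strand, so its reads are uncertain to that extent. IL11, a ligand of the same family, was at 5.15 ± 0.767 and 5.71 ± 0.855 CPM (log2 fold change 0.15, edgeR adjusted p = 0.614). The receptor genes IL6ST (87.1 ± 7.46 and 90.2 ± 5.14 CPM) and IL6R (11.3 ± 1.20 and 11.1 ± 2.35 CPM) did not pass, with log2 fold changes of 0.051 (SE 0.078) and -0.033 (SE 0.16). IL6 was not detected, and OSMR, the receptor chain for oncostatin M, had 3 counts in all.

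LIFR, the chain that pairs with IL6ST to bind LIF, differed more between libraries of sgCtrl than between groups. Its sgCtrl values were 1.29, 6.17 and 0.481 CPM, and those of sgITPR3 were 5.66, 3.76 and 5.10 CPM. The level in sgCtrl replicate 2 was above all others and the groups overlapped (log2 fold change 0.85, SE 0.53 by edgeR, adjusted p = 0.273). Exons of LIFR overlap LIFR-AS1 on the opposite strand, so its reads are uncertain to that extent. ALB, the albumin transcript of hepatocytes, was at 33.8, 169.7 and 21.6 CPM in sgCtrl and 231.6, 152.6 and 111.5 CPM in sgITPR3, and APOB and FGB were likewise highest in replicate 2 among sgCtrl libraries. Without sgCtrl replicate 2 LIFR was called higher (log2 fold change 2.44, edgeR adjusted p = 3.83e-05), as it was without a low-count filter and with limma-voom. Once ALB entered as covariate, it was -0.13 on the log2 scale (edgeR adjusted p = 0.853). CXCL12, a chemokine of liver stroma and vessels that is not a member, was at 0.645, 5.97 and 1.01 CPM in sgCtrl and 3.71, 4.98 and 3.51 CPM in sgITPR3, and its log2 fold change was 0.66 without and -0.25 with that covariate, passing in neither. Whether the reads of ALB, APOB, FGB, LIFR and CXCL12 came from mouse or human RNA was not tested. In bulk RNA, fewer cells of a type and less RNA per cell cannot be told apart.

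**Figure D3:**
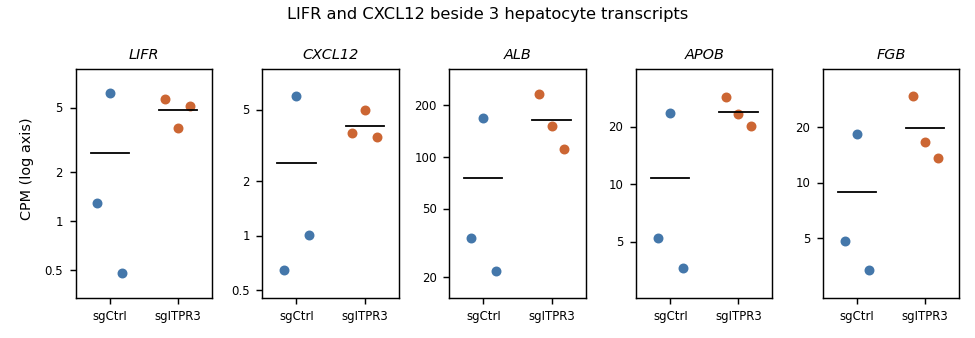
Level in CPM on log axes of LIFR and CXCL12 beside the hepatocyte transcripts ALB, APOB and FGB, 1 point per library with the group mean as a line. In all 5 panels sgCtrl replicate 2, the middle blue point, lies well above the other sgCtrl libraries and near the sgITPR3 libraries.

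IL23A encodes the p19 subunit of IL-23, which is secreted only together with the IL12B subunit (ENSG00000110944, chromosome 12, 56334174 to 56340410, plus strand). It was measured at 12.7, 11.7 and 17.0 CPM in sgCtrl and 5.10, 3.76 and 5.46 CPM in sgITPR3. No library of either group entered the range of the other (2.90-fold lower, log2 fold change -1.53, SE 0.18 by edgeR, adjusted p = 2.47e-05). The partner gene IL12B and the receptor gene IL23R had 0 counts in every library. IL27RA, a receptor chain that also pairs with IL6ST, was at 65.0 ± 3.53 and 56.5 ± 3.52 CPM. It did not pass (log2 fold change -0.20, edgeR adjusted p = 0.0681). Among the alternatives it passed only without sgCtrl replicate 2 (edgeR adjusted p = 0.0466).

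Among genes of the common gamma chain and IL-4 group, IL15RA fell, though its exons overlap AL137186.2 on the same strand, which leaves its reads uncertain. It encodes the chain that presents IL-15 to other cells, and was at 20.4, 19.9 and 19.9 CPM in sgCtrl and 17.3, 14.9 and 14.3 CPM in sgITPR3. The groups did not overlap, but the change was only 1.30-fold (log2 fold change -0.37, SE 0.10 by edgeR, adjusted p = 0.0180), and the call ended without sgITPR3 replicate 2 (log2 fold change -0.35, edgeR adjusted p = 0.0782), without sgITPR3 replicate 3 (log2 fold change -0.32, edgeR adjusted p = 0.0659) and in the fit with ALB as covariate (log2 fold change -0.41, adjusted p = 0.0652). Its ligand gene IL15 went from 16, 25 and 8 counts to 36, 35 and 37 counts, which did not pass (log2 fold change 0.93, edgeR adjusted p = 0.0933). Among the alternatives IL15 passed only without sgCtrl replicate 2 (log2 fold change 1.32, edgeR adjusted p = 0.0306). The IL-4 and IL-13 receptor chains IL4R (7.77 ± 0.322 and 8.31 ± 0.990 CPM) and IL13RA1 (89.4 ± 6.49 and 84.6 ± 16.01 CPM) did not pass. IL7 had 0 counts in sgCtrl and 2, 1 and 1 in sgITPR3, and IL7R 2 counts in all.

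Ligands of the IL-1 family, the alarm cytokines of epithelium and myeloid cells, were close to the detection limit. IL1A was not detected, IL1B and IL36G had 4 counts each over the 6 libraries, IL18 had 2 and IL33 had 10. The receptor antagonist IL1RN had 0, 2 and 0 counts in sgCtrl and 4, 4 and 2 in sgITPR3. The signalling receptor genes IL1R1 (0.486 ± 0.0975 and 0.974 ± 0.277 CPM, log2 fold change 0.98, edgeR adjusted p = 0.113) and IL1RAP (0.797 ± 0.187 and 1.13 ± 0.301 CPM, edgeR adjusted p = 0.378) did not pass. Exons of IL1R1 overlap IL1R1-AS1 on the opposite strand and those of IL1RAP overlap AC108747.1 on the same strand. Their reads are uncertain to that extent. Of the IL-17 receptor genes, IL17RA (20.6 ± 0.959 and 21.4 ± 1.91 CPM), its partner chain IL17RC (3.67 ± 1.42 and 2.76 ± 0.427 CPM) and IL17RD (150.4 ± 12.6 and 133 ± 7.59 CPM), which also restrains FGF signalling, did not pass either.

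Colony-stimulating factors guide the growth of macrophages and granulocytes. CSF1, the macrophage factor, was at 3.87, 2.78 and 2.67 CPM in sgCtrl and 1.43, 1.58 and 1.29 CPM in sgITPR3. All sgITPR3 libraries were lower (2.16-fold, log2 fold change -1.11, SE 0.26 by edgeR, adjusted p = 0.00722). The call of CSF1 was lost in the fit with ALB as covariate (-1.05 on the log2 scale, edgeR adjusted p = 0.0548). CSF2, which encodes GM-CSF, had 12, 4 and 11 counts in sgCtrl and 0 in each sgITPR3 library. The 95% exact interval of the ratio of sgITPR3 to sgCtrl reached up to 0.125, which covers counting error only. CSF2 did not enter the test, and without a low-count filter it passed (edgeR adjusted p = 2.32e-04). In that fit the edgeR adjusted p of CCL2 was 5.72e-14, against 2.61e-05 with the filter, at nearly the same fold change. A pass without the filter is therefore less strict than a pass in the main test. CSF3, the granulocyte factor, had 0 counts in sgCtrl and 5 in sgITPR3.

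The neutrophil-attracting CXC chemokines, which are classical NF-kB targets, had few counts in these cells. CXCL8 had 12, 10 and 2 counts in sgCtrl and 17, 12 and 9 in sgITPR3, a ratio of 1.35 (95% exact interval 0.790 to 2.36, counting error only). CXCL3 had 0, 3 and 0 counts against 5, 14 and 12. The ratio of its summed counts was 8.82 (95% exact interval 2.75 to 45.1). CXCL3 passed in the less strict fit without a low-count filter (edgeR adjusted p = 0.0164). For CXCL1 the counts were 0, 0 and 1 against 6, 3 and 2, with a ratio of 9.39 (interval 1.37 to 404), and it did not pass without the filter (edgeR adjusted p = 0.301). CXCL2 had 4, 0 and 0 against 7, 4 and 4 counts, and CXCL5 0, 4 and 2 against 2, 1 and 0. CXCL1, CXCL2 and CXCL3 are close paralogs, so their counts are uncertain where reads were shared. CXCR2, the receptor of this group, was at 8.93, 11.2 and 10.3 CPM in sgCtrl and 8.29, 8.09 and 5.82 CPM in sgITPR3. These groups did not overlap but CXCR2 missed the threshold (log2 fold change -0.45, SE 0.16 by edgeR, adjusted p = 0.0540), and it passed with the replicate number as a block (edgeR adjusted p = 0.0455), without sgCtrl replicate 1 (0.0437) and with all low genes kept (0.0298).

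**Figure D4:**
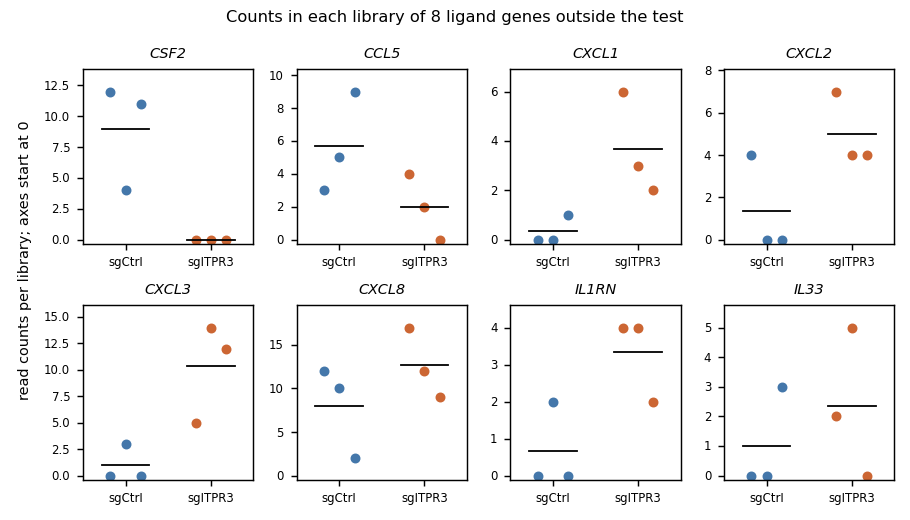
Read counts per library (vertical axes start at 0) of 8 ligand genes that were detected but outside the test, 1 point per library and a line at the group mean. CSF2 is at 0 in all sgITPR3 libraries, and CXCL3 has 5 to 14 counts there against 0 to 3 in sgCtrl.

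Other chemokines and their receptors included changes in both directions. CXCL14, a chemokine of normal epithelium (chromosome 5, 135570679 to 135579279, minus strand), was at 1.29, 1.69 and 1.92 CPM in sgCtrl and 4.58, 3.56 and 4.28 CPM in sgITPR3. It was higher in all sgITPR3 libraries (2.52-fold, log2 fold change 1.33, SE 0.24 by edgeR, adjusted p = 0.00105). Exons of SLC25A48 overlap it on the opposite strand, which leaves its reads uncertain. CX3CL1, a membrane-bound chemokine that holds monocytes and NK cells, was at 3.12, 2.09 and 2.24 CPM in sgCtrl and 1.17, 1.29 and 1.08 CPM in sgITPR3. The groups were apart (2.09-fold lower, log2 fold change -1.06, SE 0.29 by edgeR, adjusted p = 0.0159), but the call ended without sgCtrl replicate 1 (log2 fold change -0.87, edgeR adjusted p = 0.0827) and in the fit with ALB as covariate (log2 fold change -0.92, adjusted p = 0.136). CXCL16, a scavenger receptor and chemokine, was at 7.96 ± 1.83 and 10.4 ± 0.618 CPM and passed only without sgCtrl replicate 2 among the alternatives (log2 fold change 0.57, edgeR adjusted p = 0.0105). Exons of MED11 overlap CXCL16 on the opposite strand, so its reads are uncertain to that extent. CXCL10 and CXCL11, which interferon induces, had 0 and 2 counts in all.

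CXCR4 and ACKR3 both bind CXCL12, the former as a signalling receptor and the latter as a scavenger that removes the ligand. CXCR4 (chromosome 2, 136114349 to 136118165, minus strand) rose from 250.7, 238 and 228 CPM to 305, 316 and 313 CPM. The spread within each group was small beside the difference, which was 1.30-fold (log2 fold change 0.38, SE 0.065 by edgeR, adjusted p = 6.91e-04). ACKR3 (chromosome 2, 236567787 to 236582358, plus strand) fell from 4.20, 3.83 and 3.58 CPM to 1.30, 1.86 and 1.39 CPM. Its groups did not overlap (2.53-fold lower, log2 fold change -1.34, SE 0.24 by edgeR, adjusted p = 0.00110). Both passed in all 13 alternatives.

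Genes that carry the signals of these receptors are set beside all genes tested, of which 23.5% were called. Of 25 tested JAK-STAT transducers and feedback genes, 4 fell (SOCS3, CISH, PIAS3 and PTPN11) and 0 rose, or 16% called, with a median log2 fold change of -0.15. SOCS3, the feedback inhibitor that blocks IL6ST, went from 27.7 ± 0.495 to 21.7 ± 0.424 CPM (log2 fold change -0.35, edgeR adjusted p = 0.00788), and CISH, a feedback inhibitor of STAT5 signals, from 2.03 ± 0.284 to 1.06 ± 0.266 CPM (edgeR adjusted p = 0.0450). Of 13 tested transducers of the IL-1 and IL-17 receptors, 1 fell and 1 rose, or 15.4% called. IRAK2, a kinase of the IL-1 receptor complex, fell from 1.87 ± 0.368 to 0.880 ± 0.331 CPM (edgeR adjusted p = 0.0373), and PELI1, a ubiquitin ligase of that complex, rose from 12.8 ± 2.45 to 19.5 ± 1.49 CPM (edgeR adjusted p = 0.00426).

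Factors that act on the decay of cytokine transcripts gave 2 falls among 10 tested genes, or 20% called beside 23.5% of all genes. ZFP36L1, which promotes decay of AU-rich transcripts, fell from 1510.3 ± 56.4 to 973 ± 106 CPM (log2 fold change -0.63, edgeR adjusted p = 4.68e-05). Its relative ZFP36 was at 26.0, 33.5 and 18.8 CPM in sgCtrl and 21.9, 11.7 and 9.33 CPM in sgITPR3, which overlapped (log2 fold change -0.86, edgeR adjusted p = 0.0218). The nonamer TTATTTATT of AU-rich elements was searched on the sense strand of the longest annotated 3' UTR of each gene in GENCODE release 29. It occurred in 13 of 54 members, 11 of 32 ligand genes and 2 of 22 receptor genes. Among tested genes it occurred in 6 of 33 members (18.2%) and in 9.09% of all genes with such a UTR. Of the 9 members that fell, LIF, IL23A and CX3CL1 held it (33.3%), as did 0 of the 4 that rose and 3 of the 20 that did not pass. It was held by 7 of the 21 members not tested, also 33.3%. The first match of the 3 genes that fell, and of CSF2, is shown in capitals within 29 transcript bases.
LIF: ctccgggcccTTATTTATTatttaaacat
IL23A: ttggggaggaTTATTTATTgtatttatat
CX3CL1: caatgaacaaTTATTTATTaaatgcccag
CSF2: tttaaaatatTTATTTATTtatttattta
IL24, IL32 and CCL2, the members with the largest falls, had no match.

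Interleukins, chemokines and receptors outside the set were mostly undetected or too low to test. Exon overlaps with other genes were examined for members only, so whether reads of these further genes are uncertain in that way was not tested. Of 56 other ligand genes, 29 had no counts and 9 were tested, of which 4 fell and 0 rose, beside 11.9% lower and 11.6% higher over all genes. CCL26, a ligand of CCR3, fell from 2.85 ± 0.434 to 1.12 ± 0.323 CPM (edgeR adjusted p = 0.00426), CLCF1 of the IL-6 family from 4.18 ± 1.21 to 2.20 ± 0.379 CPM (edgeR adjusted p = 0.0167), IL10 from 96.3 ± 7.16 to 71.6 ± 4.45 CPM (edgeR adjusted p = 0.00102) and IL19 from 1.04 ± 0.0929 to 0.430 ± 0.0165 CPM (edgeR adjusted p = 0.0335). Of 46 other receptor genes, 15 were tested, 4 fell and 2 rose, beside the same shares over all genes. CXCR1, the receptor for CXCL8 that lies beside CXCR2, fell from 12.5 ± 2.65 to 4.51 ± 0.494 CPM (log2 fold change -1.47, edgeR adjusted p = 2.55e-05). CCR7, IL2RA and IL17RE fell by 0.36, 0.41 and 0.69 on the log2 scale. The 2 that rose were IL11RA (log2 fold change 0.35) and IL12RB2 (log2 fold change 1.29), named after their values were seen. IL19 entered the test only through its level in sgCtrl and IL12RB2 only through its level in sgITPR3. The receptor genes for CCL2, CX3CL1 and CSF1 were near 0 in these libraries. CCR2 had 1 count in all, CX3CR1 had 2 and CSF1R had 5. Host cells were mouse cells, which were depleted, and the rows are human genes. The counts of these receptors, of CCR6 and of IL23R therefore do not measure receptors on host cells.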

How the data were processed

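The deposited values are raw read counts per gene for 6 libraries. Per the labels' protocols, the authors made 3' end libraries (Lexogen 3' FWD). Per the submitters' processing notes, the authors used STAR 2.6.0a, featureCounts 1.6.3, GRCh38 and DESeq2. How strand and mouse reads were handled in the counting is not stated in the labels.

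Symbols came from a table of gene IDs, which matched 58472 of 58884 rows, and positions from GENCODE release 29. Besides the overlaps named above, exons of CCR6 overlap another gene on the same strand. Those of IL6, IL6ST, OSMR, IL7 and IL4R overlap other genes on the opposite strand. Reads of these members are uncertain to that extent. Counts were fitted in R 4.3.3 with edgeR 4.0.16 (filterByExpr with a minimum count of 10, TMM scaling, quasi-likelihood F test of sgITPR3 against sgCtrl, no covariate) over 15804 genes, which held 99.8% to 99.9% of counts, with Benjamini-Hochberg adjustment. The SE is the absolute log2 fold change over the square root of F. CPM are counts over scaled library sizes, given as mean ± SD over n = 3. The fit was tested on simulated data. Libraries of a group differed beyond sampling noise (chi-square per degree of freedom 6.07 to 11.4).

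Deviations of same-numbered libraries from their group means had correlations of -0.050, 0.013 and 0.098. Those of differently numbered libraries ranged from -0.118 to 0.115. With 3 libraries per group this cannot show whether the numbers pair libraries, which the labels do not say. Alternatives were RLE scaling, no filter, 1 CPM in 3 libraries, DESeq2 1.42.0, limma-voom (limma 3.58.1), a replicate block, dropping each library in turn, and the log2 level of ALB as a covariate.

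The members, gene lists and alternatives were chosen with earlier results of these data known. Members that passed are named with their fold change, those past 2-fold and IL24, IL32 and CCL20 with every library, untested members with counts, and from each other list up to 4 passing genes with the smallest p. Marker genes, receptors at 0 and members that missed the threshold narrowly were described further after their values were seen.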

Additional observations from a re-analysis of the deposited data

How the results depend on the processing

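The number of members that fell was 9 in the analysis reported, 12 with no filter on low counts, 7 with ALB as a covariate and 9 to 11 when 1 library was left out. The number that rose was 4, against 7 with no filter on low counts and 3 to 7 when 1 library was left out, the highest without sgCtrl replicate 2. The fit with no filter was less strict. Its edgeR adjusted p for ACKR3 was 1.08e-05, against 0.00110 with the filter, at nearly the same fold change. This limit applies to the passes of LIFR, IL20RB, CSF2, CCL28, CXCL3 and CXCR2 in that fit. Over all genes 3717 were called, against 2005 with ALB as a covariate and 2331 to 4261 when 1 library was left out, the lowest without sgITPR3 replicate 2. With the replicate number as a block, 10 members fell, 4 rose and 3877 genes were called, and CXCR2 was the member added. DESeq2 and RLE scaling called the same 13 members. Of these 13, LIF, IL24, IL23A, IL16, IL32, CCL2, CXCL14, CXCR4 and ACKR3 passed in all 13 alternatives, and CCL20 was not tested under the filter of 1 CPM. Some members that did not pass in the analysis reported changed sign. In the fit with ALB as covariate LIFR went from 0.85 to -0.13, IL17RC from -0.41 to 0.010 and IL10RB from 0.095 to -0.022 on the log2 scale. Leaving out 1 library gave log2 fold changes of -0.31 to 0.29 for IL10RB, -0.18 to 0.067 for IL13RA1, -0.024 to 0.089 for IL17RA, -0.19 to 0.12 for IL6R and -0.011 to 0.11 for IL6ST. The cause of these shifts was not tested. Genes under about 0.5 CPM, among them the neutrophil-attracting chemokines, were too shallowly counted for firm comparison.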

Other observations

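IL24 lies in a row of cytokine and immunoglobulin receptor genes on chromosome 1, which was examined after its fall had been seen. From MAPKAPK2 to PIGR the neighbours changed unequally. MAPKAPK2, encoding a kinase that stabilises cytokine transcripts, went from 159 to 131 CPM (log2 fold change -0.28, edgeR adjusted p = 0.0129), IL10 had a log2 fold change of -0.43 and IL19 of -1.26. IL20 had 6 counts in sgCtrl and 2 in sgITPR3. FCMR, which encodes a receptor for IgM, fell from 23.2 ± 1.11 to 11.9 ± 1.85 CPM (log2 fold change -0.96, edgeR adjusted p = 4.68e-05). FCMR runs on the minus strand from 206904386 to 206923247 and its 3' end faces that of IL24, which ends at 206904139. PIGR, the receptor that carries IgA across epithelium, rose from 0, 2 and 8 counts to 21, 68 and 16 counts (log2 fold change 3.08, edgeR adjusted p = 0.00746), and it entered the test only through its level in sgITPR3. FCAMR, next to it, had no counts in any library.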
